A study of Mus musculus with 6 samples.

Results

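Fibroblast growth factor (FGF) receptors, 2 of their ligands, their docking adaptor and 2 syndecans were followed in RNA-seq of MB49, a mouse bladder cancer line of male origin. The set held 10 genes of the 54532 in the deposited count table, taken by symbol: Fgfr1, Fgfr2, Fgfr3, Fgfr4, Fgfrl1, Fgf2, Fgf21, Frs2, Sdc1 and Sdc4. They were picked by role with the outcome of the Y-KO against Y-Scr comparison already known, and Fgfr3 was among the larger rises in it. Their values in that comparison come from the fit over all genes and are given as a description: whether a member passed the threshold of that fit supports nothing about the set. There were 3 libraries of the genotype CRISPR Y-KO and 3 of CRISPR Y-Scr, the latter carrying a guide RNA with no target. Per the labels, the tRFP-sorted cells were grown up as clones of single cells, both genotypes came from Y-positive MB49, and all libraries belong to batch 1. Neither the guide for Y-KO nor whether replicates of a genotype were separate clones or cultures is stated in the labels, so p-values measure only the spread between these libraries, which may be technical. The labels also name a tumor as tissue for what they call a cell line.

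FGF receptors 1 to 4 are tyrosine kinases that bind FGF ligands together with heparan sulfate, the sugar chain that syndecans and other proteoglycans carry on the cell surface. The docking protein FRS2 couples the active receptors to the RAS-ERK and PI3K pathways, and FGFRL1 is a related receptor without a kinase domain. FGF2 acts locally through heparan sulfate, whereas FGF21 is an endocrine ligand that needs the coreceptor beta-Klotho. In bladder cancer, FGFR3 is a frequent target of activating mutations, which these read counts do not show.

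Sequences just upstream of annotated starts are shown for the genes on which the results turn: Fgfr3, the receptor gene with the largest difference, which RefSeq gives 2 starts; Fgfr2, the receptor gene with no count; and Sdc4, the member with the highest level. RefSeq (GRCm38.p6) held promoters for 9 of the 10 genes, in 10 windows, and Fgfr1 was not matched. Each line gives the 250 bases before the start, with GGGCGG or its reverse complement CCGCCC in capitals, the GC box bound by SP1-family factors.
Fgfr3, first start, chr5:33721474-33721723, plus strand: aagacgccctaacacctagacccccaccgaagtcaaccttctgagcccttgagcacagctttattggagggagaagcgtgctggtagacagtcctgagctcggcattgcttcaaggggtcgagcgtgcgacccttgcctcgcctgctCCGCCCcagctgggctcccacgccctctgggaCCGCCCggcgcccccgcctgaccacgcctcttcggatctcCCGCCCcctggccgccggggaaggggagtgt
Fgfr3, second start, chr5:33722056-33722305, plus strand: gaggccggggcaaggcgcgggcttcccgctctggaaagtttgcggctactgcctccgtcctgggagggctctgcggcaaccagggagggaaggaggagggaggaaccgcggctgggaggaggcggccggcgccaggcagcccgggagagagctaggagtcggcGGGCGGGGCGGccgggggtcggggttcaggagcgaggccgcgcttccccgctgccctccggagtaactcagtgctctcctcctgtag
Fgfr2, chr7:130266809-130267058, minus strand: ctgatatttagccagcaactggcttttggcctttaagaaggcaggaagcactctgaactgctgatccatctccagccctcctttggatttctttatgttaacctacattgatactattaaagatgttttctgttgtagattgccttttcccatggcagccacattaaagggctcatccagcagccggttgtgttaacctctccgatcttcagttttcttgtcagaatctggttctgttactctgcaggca
Sdc4, chr2:164443189-164443438, minus strand: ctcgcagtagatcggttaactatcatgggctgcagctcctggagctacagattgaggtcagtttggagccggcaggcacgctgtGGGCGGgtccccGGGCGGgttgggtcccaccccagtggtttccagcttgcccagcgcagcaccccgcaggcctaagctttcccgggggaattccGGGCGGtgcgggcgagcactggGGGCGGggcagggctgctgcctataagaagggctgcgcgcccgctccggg

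The Fgfr3 windows held 3 and 2 GC boxes, the Sdc4 window 4 and the Fgfr2 window 0, counted on both strands with overlaps allowed. Over 32841 mouse promoter windows of the same length, 32.7% had at least 1. CG dinucleotides numbered 19 and 24 in the Fgfr3 windows, 19 in that of Sdc4 and 2 in that of Fgfr2, beside a median of 6 and quartiles of 2 and 16 over all windows. The sequence TATAA, on either strand, was found 1 time upstream of Sdc4 and not in the Fgfr3 or Fgfr2 windows, against 22.8% of all windows, and the AP-1 motif TGANTCA (6.8% of all windows) was in none of the 10. Counts per gene do not tell the 2 starts of Fgfr3 apart. The Fgfr2 window belongs to a RefSeq start that lies inside the counted gene, 130162451 to 133123350 on the minus strand. It is therefore not the sequence before the start of that counted gene. The Sdc4 window and the second Fgfr3 window also lie inside their counted genes. The first Fgfr3 window begins before the counted Fgfr3 gene and ends inside it.

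The libraries held 15698510 to 24633158 counts. The Y genes Ddx3y, Eif2s3y, Kdm5d and Uty summed to 370.1 to 430.6 CPM (counts scaled to 1e+06 per library, with library sizes adjusted by the TMM method) in Y-Scr and had 0 counts in every Y-KO library. Of 19 urothelial markers, 13 were under 1 CPM in every library, 4 of them at 0 counts (the uroplakin gene Upk3a, Krt20, Epcam and Cdh1). The urothelial transcription factor genes Gata3 (7.8 ± 0.333 CPM in Y-Scr, SD, n = 3), Foxa1 (9.39 ± 0.966) and Elf3 (12.8 ± 2.09) were detected, and Krt8 and Krt18 were abundant, so the labelled bladder origin matched some of these markers and not others. The list's summed level, mostly Krt8 and Krt18, ran from 3378.9 to 3748.3 CPM in Y-Scr, beside 4037.9 to 4339.4 in Y-KO. Of its 6 tested genes, 2 were higher in Y-KO (Krt8, 0.36, and Krt19, 2.37, as log2 changes) and 2 were lower (Gata3, -1.48, and Elf3, -1.14). All 10 endothelial markers and 20 of 23 leukocyte markers were under 1 CPM in every library, among them Ptprc and Cd3e at 0 counts. The leukocyte list summed to 115.4 to 123.7 CPM in Y-Scr, beside 98.6 to 106.7 in Y-KO, most of it from Cd68. Of 3 tested, 0 were higher and 2 lower (Ly6g, -0.80, and Cd68, -0.17). The call of Cd68 was lost, among other fits, with DESeq2 (-0.16) and with the trend on gene length removed (-0.03). It was also lost without Y-Scr 3 or any 1 Y-KO library (-0.19 to -0.14). Of 11 fibroblast and mural markers, 7 were under 1 CPM in every library. Their sum, nearly all Vim, ran from 4591.6 to 5179.3 CPM in Y-Scr, beside 5150.4 to 5416.8 in Y-KO, and 1 of 4 tested was higher (Pdgfra, 0.73). The 10 erythroid and megakaryocyte markers, 5 of them at 0 counts, summed to 4.11 to 6.31 CPM against 6.57 to 8.59. Nearly all of this came from Itga2b (0.55, called higher). The call of Itga2b was lost without Y-Scr 1, Y-Scr 2, Y-KO 1 or Y-KO 2 (0.41 to 0.59). It was also lost with the trend on gene length removed (0.49) and with those on length and GC content removed (0.31). The part of these markers in the results was not tested. A fall in the number of cells that express a gene and a fall in RNA per cell cannot be told apart in such bulk libraries.

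Across all tested genes, 5633 of 12907 (43.6%) passed an adjusted p of 0.05 in edgeR's quasi-likelihood test, 20.7% as higher and 23.0% as lower in Y-KO. Of the 10 members, 7 had enough counts to enter this fit. Fgfr3 was called higher, Sdc4 was called lower, and Fgfr1, Fgfrl1, Fgf21, Frs2 and Sdc1 were not called. The median log2 change of these 7 was 0.01, beside -0.01 over all tested genes. The libraries of the groups did not overlap for 2 of the 7, Fgfr3 and Sdc4, and for 52.9% of all tested genes. Since the set was picked with this comparison in view, nothing is read from these counts.

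**Figure D1:**
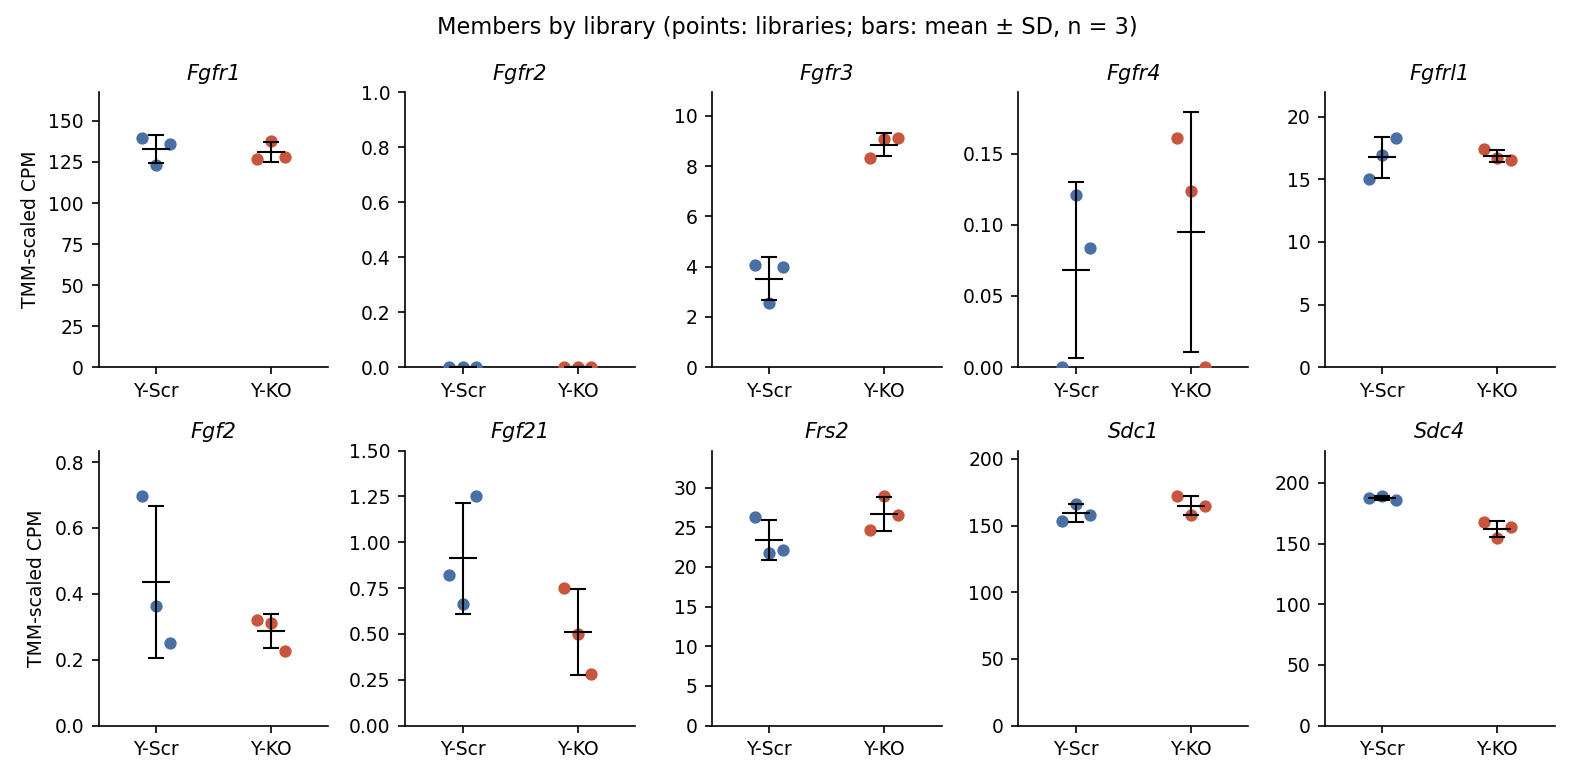
TMM-scaled CPM (y axes, each from 0) of the 10 members in the 3 Y-Scr (blue) and 3 Y-KO (red) libraries, with mean ± SD as black bars. The groups separate for Fgfr3, at 2.54 to 4.05 against 8.33 to 9.12 CPM, and by less for Sdc4, while the points of the other detected genes overlap and Fgfr2 lies at 0.

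Among the receptors, Fgfr3 differed and Fgfr1 did not separate the groups. Fgfr3 (ENSMUSG00000054252, chromosome 5, 33721674 to 33737068, GRCm38) had 64, 42 and 95 counts in the Y-Scr libraries and 155, 146 and 161 in the Y-KO libraries. On the TMM scale these were 4.05, 2.54 and 3.97 CPM against 8.33, 9.09 and 9.12 CPM. The 1 gene that overlaps Fgfr3, on the other strand, had no count. Every Y-KO library was above every Y-Scr library, and the lowest value was that of Y-Scr 2. The fitted change was 1.32 ± 0.19 (SE, log2), or 2.49-fold. Of the 12907 tested genes, 112 had a larger log2 change. Its value ran from 1.04, with the trends on length and GC content removed, to 1.43, without Y-Scr 3.

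Fgfr1, which encodes the receptor most typical of mesenchymal cells, was the receptor gene with the highest level (ENSMUSG00000031565, chromosome 8, 25513654 to 25575718). It stood at 139.7, 123.0 and 136.0 CPM in Y-Scr and at 127.1, 138.0 and 128.2 CPM in Y-KO. The 2 ranges covered each other almost entirely, with a fitted change of -0.02 ± 0.07 (SE, log2). That value depended on how gene length and base composition were treated. It was -0.19 after removing the length trend of each library and -0.35 with the trends on length and GC content removed, both past the threshold.

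Fgfr2 and Fgfr4 were at or near the detection limit. Fgfr2, the receptor gene typical of epithelia (chromosome 7), had 0 counts in all 6 libraries, which allows up to 0.0533 CPM over the Y-Scr group and 0.0573 CPM over the Y-KO group (3 counts each, counting error only). Its annotated span of 2960900 bases overlapped 69 other genes, and the assignment of reads in shared positions is not stated in the labels. Fgfr4 (chromosome 13) had 0, 2 and 2 counts in Y-Scr, against 3, 2 and 0 in Y-KO. The ratio of its summed counts, Y-KO over Y-Scr, was 1.34 with an exact 95% interval of 0.289 to 6.77, so neither direction could be read at this depth.

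Fgfrl1, the gene of the kinase-free receptor (chromosome 5, 108692382 to 108706924), stood at 15.0, 16.9 and 18.3 CPM in Y-Scr and at 17.4, 16.7 and 16.5 CPM in Y-KO. All 3 Y-KO values fell inside the Y-Scr range, and the fitted change was 0.01 ± 0.11 (SE, log2). Fgfrl1 lies on the same chromosome as Fgfr3.

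Per kilobase of the deposited gene length, the scale on which genes can be set against each other, Fgfr1 made up most of the receptor RNA in both groups. The sum of Fgfr1 to Fgfr4 was 14.0 ± 0.99 CPM per kilobase (SD, n = 3) in Y-Scr, against 14.5 ± 0.648 in Y-KO. The share of Fgfr3 in that sum was 3.85%, 2.76% and 3.86% in the Y-Scr libraries and 8.26%, 8.31% and 8.93% in the Y-KO libraries. The share was thus higher in each Y-KO library than in any Y-Scr library, while the summed level of the receptors overlapped between the groups. Fgfr1 held 96.0% to 97.0% of the sum in Y-Scr and 91.1% to 91.5% in Y-KO. The level of Fgfr1 per kilobase was 28.3 ± 5.87 times that of Fgfr3 in Y-Scr and 10.8 ± 0.49 times in Y-KO (SD, n = 3).

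Over all members, the order of levels per kilobase was the same in both groups except at 1 place. In Y-Scr it ran from Sdc4 (73.6 ± 0.665 CPM per kilobase, SD, n = 3) through Sdc1 (41.8 ± 1.76), Fgfr1 (13.5 ± 0.888), Fgfrl1 (6.02 ± 0.596), Frs2 (2.67 ± 0.287), Fgf21 (0.961 ± 0.32), Fgfr3 (0.492 ± 0.119) and Fgf2 (0.0644 ± 0.0342) to Fgfr4 (0.0192 ± 0.0175) and Fgfr2 at 0. In Y-KO, Fgfr3 (1.24 ± 0.0628) stood above Fgf21 (0.537 ± 0.247). Neighbours in the order did not overlap between genes over the libraries of a group, apart from Fgfr4 with Fgfr2 in both groups and Fgf2 with Fgfr4 in Y-KO.

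**Figure D2:**
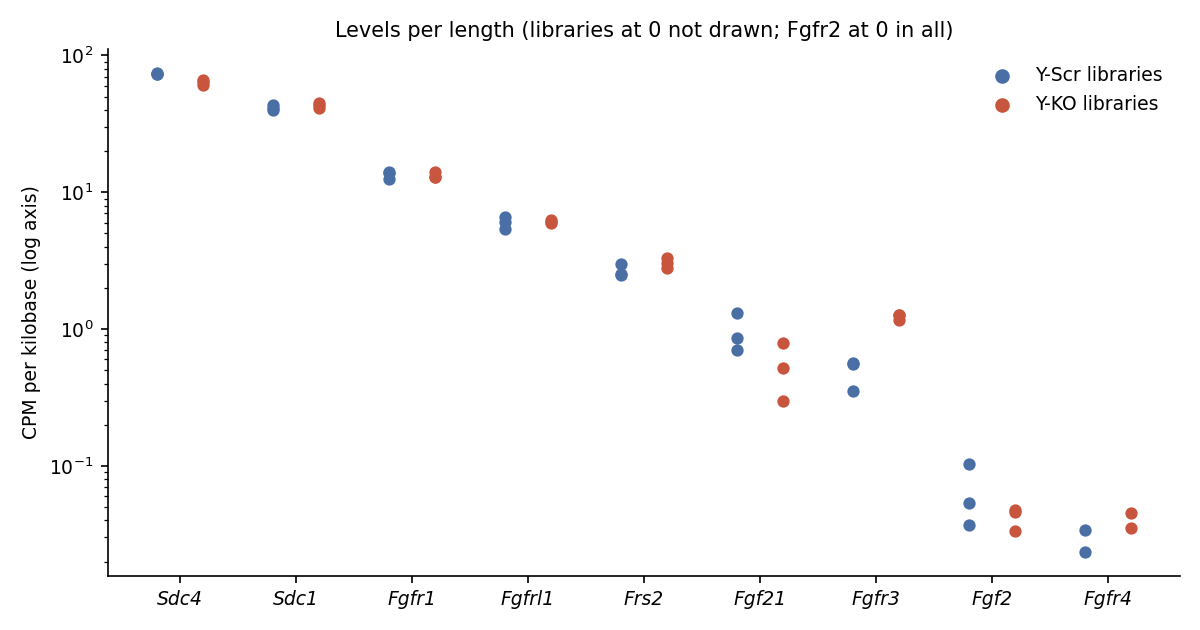
Level per length (y axis, CPM per kilobase, log scale) of each member with a count, by library, Y-Scr in blue and Y-KO in red. Levels span from Sdc4 at 73.6 CPM per kilobase in Y-Scr down to Fgfr4 at a mean of 0.0192 (libraries at 0 are not drawn), and Fgfr3 lies below Fgf21 in Y-Scr and above it in Y-KO.

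Both ligand genes of the set were low. Fgf21 (chromosome 7, 45613886 to 45615490) had 13, 11 and 30 counts in Y-Scr and 14, 8 and 5 in Y-KO, or 0.823, 0.665 and 1.25 CPM against 0.752, 0.498 and 0.283 CPM. The highest Y-KO value lay above the lowest Y-Scr value. The fitted change was -0.85 ± 0.50 (SE, log2), and it lay between -1.25 without Y-KO 1 and -0.53 without Y-Scr 3, with no call in any fit that tested it. Transcripts of Klb and Kl, which encode the Klotho coreceptors of endocrine FGFs, were nearly absent, with 0 counts in each library but Y-KO 3, where Klb had 3 and Kl had 1. Fgf2 (chromosome 3, 37348346 to 37410108) had 11, 6 and 6 counts in Y-Scr and 6, 5 and 4 in Y-KO and was under the filter of the test. The ratio of its summed counts was 0.701 with an exact 95% interval of 0.34 to 1.4. Fgf2 overlaps Nudt6 on the opposite strand, and with the strand setting of the counting not given, reads of the pair cannot be told apart.

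The adaptor and syndecan genes were well covered and differed little. Frs2 (chromosome 10, 117069427 to 117148534), the docking protein gene, stood at 26.3, 21.8 and 22.1 CPM in Y-Scr and at 24.6, 28.9 and 26.6 CPM in Y-KO. Only Y-Scr 1 reached into the Y-KO range. The fitted change was 0.19 ± 0.10 (SE, log2), which was not called, and 0.29, called as higher, without Y-Scr 1. Sdc1 (chromosome 12, 8771323 to 8793715), the syndecan gene most typical of epithelial and plasma cells, stood at 153.3, 166.4 and 157.7 CPM against 171.9, 158.1 and 164.9 CPM. Its groups overlapped, with a change of 0.05 ± 0.06. Sdc4 (chromosome 2, 164424247 to 164443887), whose product also sits at focal adhesions, stood at 187.8, 188.9 and 185.6 CPM in Y-Scr and at 167.4, 155.0 and 164.0 CPM in Y-KO. All Y-KO values were lower, and the Y-Scr libraries lay close together, with an SD of 1.69 CPM beside 6.42 in Y-KO. The change of Sdc4 was -0.21 ± 0.06, or 0.865-fold. Its call was lost without Y-KO 2 (-0.18), with the trend on gene length removed (-0.12) and with the trends on length and GC content removed (-0.07).

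**Figure D3:**
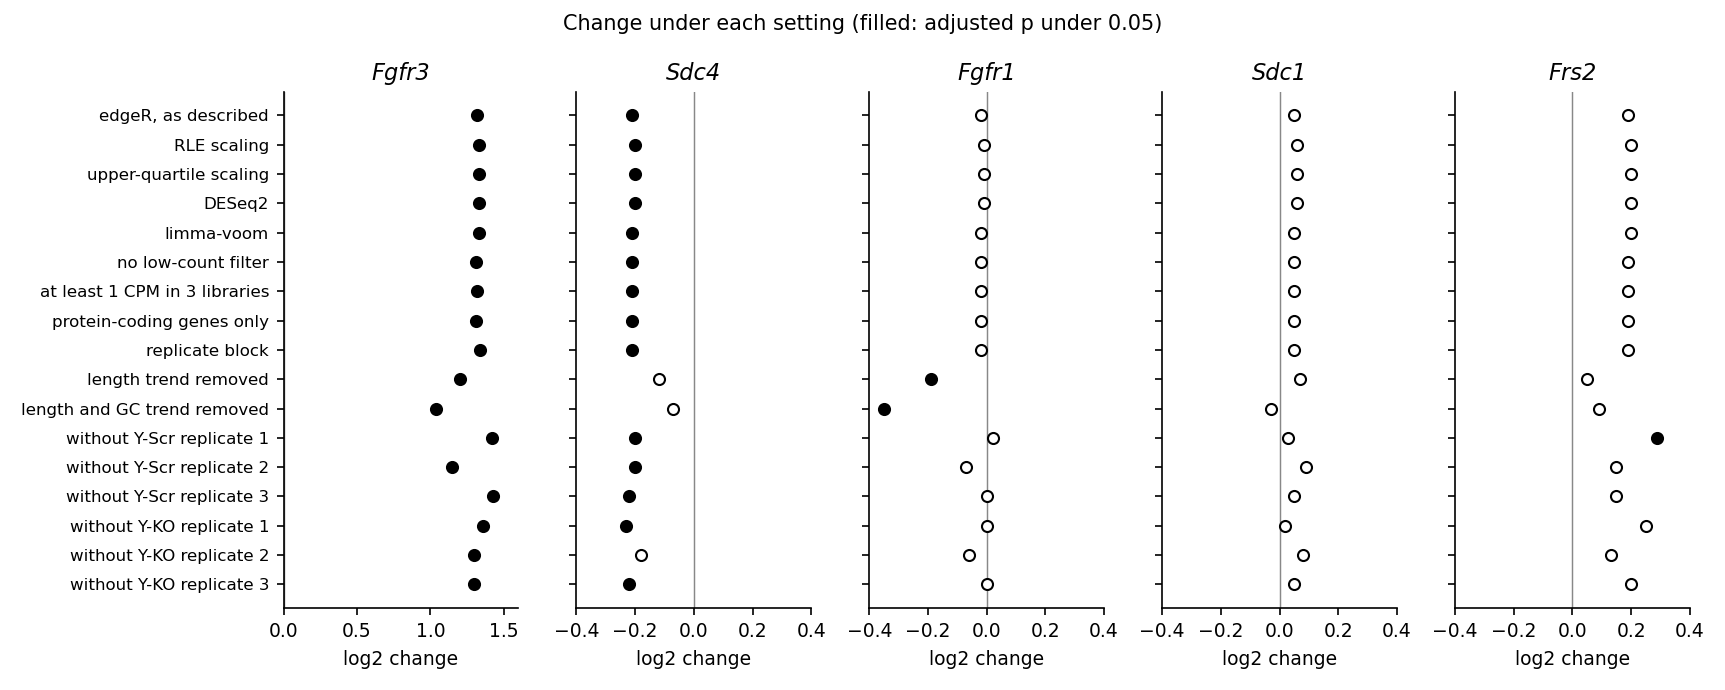
Log2 change, Y-KO minus Y-Scr (x axes), of 5 members under each setting (rows), filled where the adjusted p was under 0.05. Fgfr3 lies between 1.04 and 1.43, and the calls of Sdc4 and Fgfr1 change when the trends on length and GC content are removed.

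Which other genes of the FGF pathway moved was asked with 5 lists drawn up by role, holding 104 genes that are no members. Of these, 67 were tested, 22 rose and 15 fell, with a median log2 change of 0.09. Over all tested genes, 20.7% rose and 23.0% fell. Among the ligand and binding protein genes, 12 of 22 had 0 counts and 5 were tested, of which 1 rose and 3 fell (median -0.36).

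Fgf1, the ligand gene whose product binds all FGF receptors, was at 2.34, 2.06 and 2.42 CPM in Y-Scr and at 0.322, 0.934 and 1.36 CPM in Y-KO. All Y-KO values were lower, and it fell by 1.39 ± 0.41 on the log2 scale (SE, quasi-likelihood test of edgeR, adjusted p = 0.00998), a call lost without Y-KO 1 (-0.98). Fgf15, an endocrine FGF gene, fell by 0.36 ± 0.09, from 30.6 ± 1.39 to 23.8 ± 1.2 CPM (SD, n = 3, edgeR adjusted p = 0.00385). Its mean level per kilobase, 9.99 CPM in Y-Scr, was the highest of the listed ligand genes there. In Y-KO it was 7.77, above those of the other listed ligand genes except Fgf11 (8.54), whose product stays inside the cell. The Y-KO libraries of Fgf11 and Fgf15 overlapped on this scale, so their order in Y-KO is not settled. The carrier protein genes went opposite ways. Fgfbp1 fell by 0.66 ± 0.17 (edgeR adjusted p = 0.00463) and Fgfbp3 rose by 0.42 ± 0.15 (adjusted p = 0.0245). The call of Fgfbp3 was lost without Y-Scr 1 (0.41), Y-Scr 2 (0.42) or Y-KO 1 (0.30).

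Coreceptor and receptor partner genes changed in both directions: of 18, 9 were tested, 3 rose and 2 fell (median -0.08). The shares over all tested genes were 20.7% and 23.0%. In the syndecan family, Sdc3 rose by 0.95 ± 0.13 (SE, log2), from 10.9, 12.5 and 11.6 CPM to 18.7, 25.6 and 23.5 CPM (quasi-likelihood test of edgeR, adjusted p = 7.1e-06). No library of one group came near the other for Sdc3, but per kilobase its level stayed far below those of Sdc4 and Sdc1, at 1.95 in Y-Scr and 3.77 CPM per kilobase in Y-KO. Sdc2 fell by 0.18 ± 0.07 (edgeR adjusted p = 0.0371), but the call was lost with RLE or upper-quartile scaling (-0.17), DESeq2 (-0.17), the replicate number as a block (-0.18), the trend on length removed (-0.15) and each library left out (-0.19 to -0.14) except Y-Scr 3. With the trends on length and GC content removed its direction turned (0.04, not called). The list's number of genes called higher, 3, went to 1 without Y-Scr 2 or with the trends on length and GC content removed, and to 2 without Y-Scr 3 or Y-KO 2, with the block or with the trend on length removed. Hspg2, the gene of the basement membrane proteoglycan perlecan, rose by 0.72 ± 0.15, from 122.1 ± 19.3 to 200.5 ± 31.3 CPM (SD, n = 3, edgeR adjusted p = 0.00897). That change was 0.68 and not called without Y-Scr 2, and 0.22 and not called with the trends on length and GC content removed. Flrt3, whose product binds FGF receptors, fell by 1.04 ± 0.13, from 16.0 ± 0.986 to 7.76 ± 0.0804 CPM (SD, n = 3, edgeR adjusted p = 2.7e-06). Ncam1, an adhesion molecule gene, rose by 0.29 ± 0.10 (edgeR adjusted p = 0.0264) and lost this call in 6 of the alternative fits (0.12 to 0.29), among them those without Y-Scr 2 (0.25), Y-Scr 3 (0.25) or Y-KO 2 (0.23).

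Of 22 genes that build or edit heparan sulfate, 13 were tested, 5 rose and 3 fell (median 0.16). Among all tested genes, 20.7% rose and 23.0% fell. Extl3, which acts at the start of chain synthesis, rose by 0.60 ± 0.08 (SE, log2), from 45.7 ± 1.45 to 69.3 ± 1.89 CPM (SD, n = 3, quasi-likelihood test of edgeR, adjusted p = 3.5e-06). The N-deacetylase and N-sulfotransferase gene Ndst1 rose by 0.51 ± 0.08 (edgeR adjusted p = 2.3e-05), and Ndst2, of the same family, rose by 0.56 ± 0.12. Ndst3, also of that family, fell by 0.51 ± 0.14, a call lost without Y-Scr 1 (-0.33). Glce, the gene of the epimerase that turns glucuronic into iduronic acid, fell by 0.52 ± 0.06, from 186.5 ± 8.22 to 129.9 ± 3.37 CPM (SD, n = 3, edgeR adjusted p = 1.7e-06). Extl1 fell by 0.40 ± 0.07 (edgeR adjusted p = 7.2e-05). With the trend on length removed, 3 of the 13 were called higher.

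Among adaptors and relays between the receptors and ERK or PI3K, all 24 were tested, 9 rose and 1 fell (median 0.15). Over all tested genes, 20.7% rose and 23.0% fell. Plcg1, a phospholipase gene whose product binds the active receptor, rose by 0.64 ± 0.09 (SE, log2), from 28.1 ± 3.11 to 43.8 ± 1.01 CPM (SD, n = 3, quasi-likelihood test of edgeR, adjusted p = 2.0e-05). The PI3K subunit genes Pik3r1 and Pik3r2 rose by 0.45 ± 0.12 (edgeR adjusted p = 0.00422) and 0.30 ± 0.06 (adjusted p = 8.6e-04), and the adaptor gene Crkl by 0.34 ± 0.08 (adjusted p = 0.00186). Frs3, the other FRS gene, stood at 0.26 ± 0.28 and Grb2, the adaptor that FRS2 recruits, at 0.07 ± 0.07, neither past the threshold. Pik3r1 was 0.27 and not called with the trend on length removed, which left 5 of the 24 called higher. Pik3r2 was 0.08 and not called with the trends on length and GC content removed. Under that same removal, Ptpn11 (0.24 before, 0.09 after), Cbl (0.37, 0.17) and Akt1 (0.22, 0.03) also lost their higher calls. The 1 gene that fell, Mapk3 (-0.15 ± 0.06, edgeR adjusted p = 0.0452), one of the ERK kinase genes, lost its call in each fit that left out 1 library, with RLE or upper-quartile scaling (-0.14), with the replicate block (-0.15), with the length trend removed (-0.05) and where low-count genes were kept (-0.15).

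Feedback inhibitors and target genes of the pathway split: of 18, 16 were tested, 4 rose and 6 fell (median 0.08). Beside this, 20.7% of all tested genes rose and 23.0% fell. Egr1, an early response transcription factor gene, stood at 16.1, 18.3 and 19.2 CPM in Y-Scr and at 3.17, 2.49 and 3.12 CPM in Y-KO. It fell by 2.61 ± 0.16 on the log2 scale (SE, quasi-likelihood test of edgeR, adjusted p = 1.2e-10), with a wide gap between the groups. Fosl1, an AP-1 subunit gene, fell by 1.10 ± 0.06 (edgeR adjusted p = 5.9e-11). Dusp5, the gene of a nuclear ERK phosphatase, fell by 1.10 ± 0.08 (adjusted p = 3.6e-09), and Myc by 0.76 ± 0.06 (adjusted p = 9.3e-09). Dusp6, a cytoplasmic ERK phosphatase gene widely used as a readout of FGF signalling, fell by 0.55 ± 0.07, from 95.9 ± 6.21 to 65.4 ± 2.84 CPM (SD, n = 3). Spred3 fell by 0.39 ± 0.10. In the other direction, Spry1, a Sprouty inhibitor gene, rose by 0.65 ± 0.12, Spred2 by 0.32 ± 0.08, Etv5 by 0.29 ± 0.10 and Ccnd1 by 0.24 ± 0.06. The call of Etv5, an ETS transcription factor gene, was lost without Y-Scr 2 (0.28) or Y-KO 2 (0.22). Spry2 (-0.20 ± 0.11), Spry4 (0.07 ± 0.37) and Etv4 (0.09 ± 0.07) were not past the threshold. These genes also respond to other pathways, and which input they follow was not tested.

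**Figure D4:**
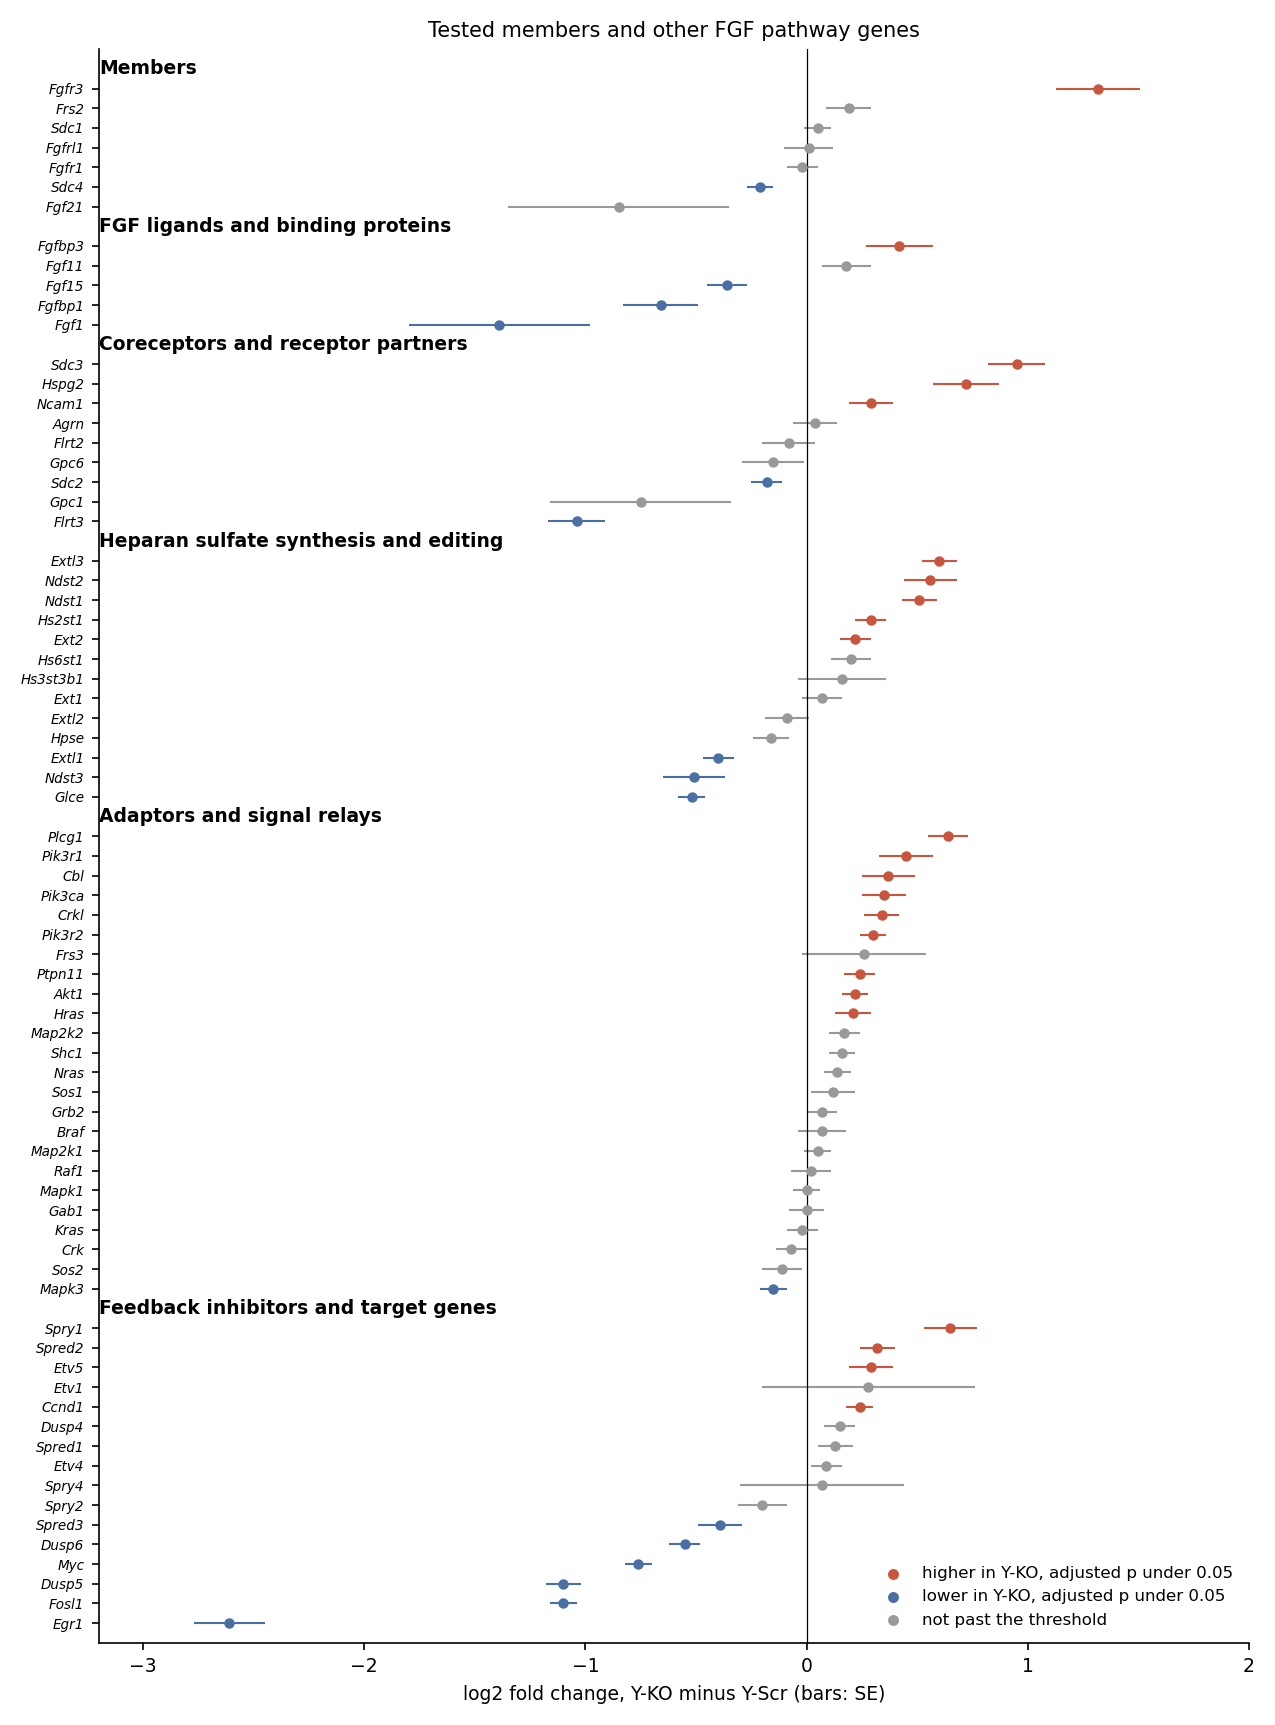
Log2 fold change, Y-KO minus Y-Scr (x axis), with SE bars for the 7 tested members and the 67 other tested genes of the pathway lists (rows), red where called higher, blue where called lower and grey otherwise. Fgfr3 (1.32) has the largest rise in the plot and Egr1 (-2.61) the largest fall.

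The genes whose profile over the 6 libraries was closest to that of Fgfr3 were Mcam, 2510009E07Rik and Prr12. Closeness was the root mean square difference between log2 CPM profiles, each centred on its own mean, among 12002 tested genes that averaged 1 CPM or more. It was 0.115 for Mcam, 0.18 for 2510009E07Rik and 0.182 for Prr12. Mcam, an adhesion molecule gene, stood at 0.706 ± 0.167 CPM in Y-Scr, against 1.95 ± 0.062 in Y-KO (SD, n = 3). With 2 groups of 3 libraries, such a profile holds little beyond the difference between the groups.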

How the data were processed

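Gene counts of 6 libraries (3 Y-KO, 3 Y-Scr) were used as deposited by the authors, whole numbers with no normalization, together with the deposited gene lengths. Per the submitters' processing notes, which give no order, software included STAR 2.5.2b and featureCounts 1.5.3, beside Trimmomatic 0.39, FastQC 0.12.1, MultiQC 1.13 and DESeq2, and the named builds are GRCm39 (mm39). Of 54409 genes shared with the GENCODE M21 annotation of GRCm38, 53499 (98.3%) had identical coordinates, so positions are given as GRCm38. No source used here gives the strand setting of featureCounts.

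Members were matched by symbol. The members, lists and tests were chosen with earlier results of these data known. Y-KO was set against Y-Scr with edgeR 4.0.16 under R 4.3.3 (filterByExpr, TMM scaling, robust quasi-likelihood fit, group as the only term). Adjustment was by Benjamini-Hochberg over 12907 genes, with a threshold of 0.05. The code was tried on counts simulated from a negative binomial model with the dispersions of these data. Such counts cannot show whether the real libraries follow that model. The SE of a log2 change was derived from the test, as the absolute change over the square root of its F statistic. CPM values use TMM-scaled library sizes. Ratios of summed counts carry exact 95% intervals for counting error only, since PCR copies were not marked. Named genes were all members, up to 4 genes per pathway list with the smallest adjusted p, and the 3 genes nearest to Fgfr3 in profile (log2 of CPM plus 0.1). Others are named as examples chosen after their values were seen. Alternative fits used RLE or upper-quartile scaling, other low-count filters, DESeq2 1.42.0, voom (limma 3.58.1), protein-coding genes only, a replicate block, the removal of each library's trend on gene length (natural spline, 4 degrees of freedom) and each library left out. The removal of length and GC trends together was added after seeing the data. All 6 libraries were counted as separate, since within each group every pair had a chi-square of 3.55 to 16.0 per degree of freedom.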

Additional observations from a re-analysis of the deposited data

How the results depend on the processing

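The number of members called higher in Y-KO was 1, with a range of 1 to 2 when each library was left out in turn, and the number called lower was 1, with a range of 0 to 1. With the trend on gene length removed, or those on length and GC content, Fgfr1 was called lower in place of Sdc4. Other pathway genes gave 16 to 24 higher and 12 to 16 lower calls over the settings, against 22 and 15. Over all tested genes, 2141 to 2803 were higher and 2458 to 3154 lower. The share of Fgfr3 in the receptor sum, with each library left out, was 3.31% to 3.85% in Y-Scr and 8.28% to 8.62% in Y-KO. Of the 20 pathway genes named for their p-value, 14 kept direction and call in every alternative fit, and the other 6 are named above with their values. The cause of these changes was not tested. With the replicate number as a block, 20 pathway genes were higher and 13 lower, and Ncam1, Hras, Sdc2 and Mapk3 lost their calls. Sdc2 was the only called pathway gene whose direction turned under any alternative (0.04 with the trends on length and GC content removed). The labels do not say that the numbers pair the libraries, and deviations from the group means of same-numbered libraries correlated at -0.064, -0.034 and -0.024. Depth limits Fgfr2, Fgfr4, Fgf2 and Fgf21, for which a count floor of 3 stood at 0.122 to 0.191 CPM per library. These floors were taken on the total counts, without TMM scaling.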

Other observations

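The genes next to Fgfr3 and Sdc4 on their chromosomes, taken as the 5 nearest tested genes on each side after the values were seen, moved in both directions. Around Fgfr3 on chromosome 5, the median log2 change of the 10 neighbours was 0.10. By edgeR's quasi-likelihood test at an adjusted p of 0.05, 4 were higher and 1 lower, beside 20.7% and 23.0% of all tested genes. The nearest, Tacc3 (0.24 ± 0.08, SE) and Letm1 (0.44 ± 0.08, a mitochondrial inner membrane protein gene), were called higher, at values below the 1.32 of Fgfr3. The call of Tacc3 was lost without Y-Scr 1 (0.17) and without Y-KO 1 (0.21) or 3 (0.22). That of Letm1 was lost with the trends on length and GC content removed (0.17). Nsd2 (0.37) lost its higher call with the trend on length removed (0.13), and Nelfa (0.26) without Y-Scr 1 (0.23) or Y-KO 2 (0.22) or 3 (0.27). The 1 lower gene, Haus3 (-0.25), turned to 0.11, not called, with the trends on length and GC content removed. Its call was also lost with DESeq2 (-0.24), the replicate block (-0.25) and low-count genes kept (-0.25). The same held without Y-Scr 1 or 2 or Y-KO 1 or 2 (-0.24 to -0.20). Tacc3 is a spindle gene known as a fusion partner of FGFR3 in human bladder cancer, and fusions were not looked at here. Around Sdc4 on chromosome 2, the median of 10 neighbours was -0.13, with 3 higher and 4 lower. Among the lower, Dnttip1 (-0.27) lost its call with RLE or upper-quartile scaling, DESeq2, voom or the replicate block (-0.26 to -0.25). Its call was also lost with the trend on length (-0.15) or those on length and GC content (-0.22) removed. The same held without Y-Scr 2 (-0.14) or any 1 Y-KO library (-0.30 to -0.24). Slpi, a protease inhibitor gene, fell by 0.83 ± 0.07, whereas Stk4, the gene of the Hippo kinase MST1, rose by 0.39 ± 0.08. Matn4, a matrilin gene next to Sdc4, had the largest value of the 10 (1.37 ± 0.48), a call lost without Y-Scr 2 (1.02) and without Y-KO 1 (1.21) or 2 (1.43).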
